A study of Mus musculus with 32 samples.

Results

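Transcripts of 3 retroviral repeat rows, RLTR45-int, ERVB4_2-I_MM-int and ERVB4_2-LTR_MM, were followed through mouse oocytes, early embryos and embryonic stem cells. The 3 rows were taken by name from the 1153 repeat subfamilies counted in every library beside 55335 genes, and all 3 belong to the ERVK family, which has 285 of those subfamilies. They had been chosen from these libraries for a rise at the 4-cell stage and a fall with cycloheximide or MG132. Values in contrasts with vehicle-treated embryos are therefore a description with no test, and tests are given for contrasts between other libraries. The cells in which the fall was seen and the treatment of the embryos that rose were not stated. Tests of the drugs in stem cells and of the stage with aphidicolin may thus repeat the choice. The choice does not hold equally for the 3 rows: the values of ERVB4_2-LTR_MM overlapped between vehicle-treated 2-cell and 4-cell embryos, and at 4 cells it was highest with cycloheximide.

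Endogenous retroviruses are remains of germline infections. An intact copy has an internal part with retroviral genes such as gag and pol between long terminal repeats (LTRs), which hold the promoter and the polyadenylation signal. Rows with -int or -I in their name count the internal part and rows with LTR count the terminal repeat; RLTR45, without a suffix, is the LTR named like RLTR45-int. Many copies in the genome are reduced to a solitary LTR, which can add reads to an LTR row but none to an internal row. ERVK elements are the mouse class related to betaretroviruses and include the intracisternal A particles. In embryonic stem cells such elements are held silent by TRIM28 and the histone methyltransferase SETDB1 together with DNA methylation, and transcripts of several retroviral families appear in a stage-dependent way in preimplantation embryos. A row sums all copies of a subfamily, so a change cannot be assigned to particular copies. No sequence of these elements was used here.

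The 32 libraries form 16 groups of 2. Growing oocytes at postnatal day 14 (P14) came from mice transgenic for the histone variant H3.3, in its normal form (H3.3WT) or with lysine 4 replaced by methionine (H3.3K4M). Metaphase II (MII) oocytes came from wild-type females of 8 weeks or 12 months. Wild-type 2-cell (2C) embryos came from 12-month females without treatment, or from females of 6 to 8 weeks with DMSO as vehicle, aphidicolin (APH, which blocks DNA polymerases), cycloheximide (CHX, which blocks translation) or MG132 (which blocks the proteasome). Wild-type 4-cell (4C) embryos came from females of 6 to 8 weeks with the same 4 agents, and the wild-type embryonic stem cell (ESC) line AB2.2 was given DMSO, CHX or MG132. Titles mark the embryos as made by in vitro fertilisation. The promoter of the transgene, doses, durations and the number of cells pooled were not given in the sources used here. Maternal age and vehicle cannot be told apart between the 12-month and the DMSO 2C embryos, nor library kit and system between embryos (Smart-Seq2) and stem cells (a poly(A) TruSeq kit). No label ties the 2 libraries of a group to separate cultures or females, so p-values measure the spread between these samples only, which may be technical.

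Libraries held between 14313718 and 34713159 counts, and repeats took from 2.93% of them in an ESC library to 33.1% in a P14 library. The 8 oocyte markers were detected at 1 count or more per 1000000 (CPM) in both kinds of oocyte, the 6 stem cell markers in all ESC groups, and the 6 matched 2-cell markers in vehicle 2C embryos. Of the 4 genes used to mark the 4-cell stage, Cdx2 had no count in the vehicle 4C libraries. In CHX-treated 2C embryos the 2-cell markers summed to only 2.76 and 4.13 CPM, against 738 and 992 CPM with vehicle. ESC libraries also held transcripts of all 3 fibroblast collagens listed.

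Both internal rows had their highest level in vehicle 4C embryos. RLTR45-int stood at 1884 and 2095 CPM there, where CPM is the count of a row scaled to 1000000 counts of genes and repeats in the library. It stood at 46.1 and 53.7 CPM in vehicle 2C embryos and at 7.83 and 8.79 CPM in MII oocytes of 8-week females. The mean at 4 cells was thus 39.8-fold that at 2 cells and 239-fold that in the oocyte, with no overlap between libraries. Such separation upwards from vehicle 2C to vehicle 4C was found for 14.7% of repeat subfamilies. RLTR45-int alone took 13.96% and 16.59% of all ERVK counts in the vehicle 4C libraries, against 0.442% and 0.462% in vehicle 2C embryos. As a part of all repeat counts it was at most 0.0258% in the vehicle 2C libraries and 1.09% and 1.04% in the vehicle 4C libraries.

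ERVB4_2-I_MM-int followed the same order of stages. It was at 168 and 206 CPM in vehicle 4C embryos, 12.8 and 10.1 CPM in vehicle 2C embryos and 1.59 and 1.13 CPM in 8-week MII oocytes. The 4C mean was 16.3-fold the 2C mean and 137-fold the oocyte mean, again without overlap. In the fit over all features (edgeR, with library sizes scaled by trimmed mean of M values), the log2 change from vehicle 2C to vehicle 4C was 5.72 ± 0.30 (standard error) for RLTR45-int and 4.44 ± 0.36 for ERVB4_2-I_MM-int. These are the third and the seventh largest increases of 1006 repeat subfamilies fitted, whose median change was -0.56. By call, 8.35% of those subfamilies were higher at 4 cells (adjusted p under 0.05); for the members that contrast chose them and nothing is read from this share.

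ERVB4_2-LTR_MM behaved otherwise. It had 145 and 97.3 CPM in vehicle 4C embryos and 61.7 and 161 CPM in vehicle 2C embryos, so the libraries overlapped and the ratio of the means was 1.09. The fitted change was 0.53 ± 0.48 on the log2 scale. Its step came earlier: 8-week MII oocytes had 1.78 and 1.35 CPM, and the vehicle 2C mean was 71.2-fold higher. For the internal rows the same step from MII oocyte to 2C embryo was 6.01-fold (RLTR45-int) and 8.41-fold (ERVB4_2-I_MM-int). No library of vehicle 2C embryos reached down to the oocyte values for any of the 3 rows, which was also so for 82.2% of repeat subfamilies.

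**Figure D1:**
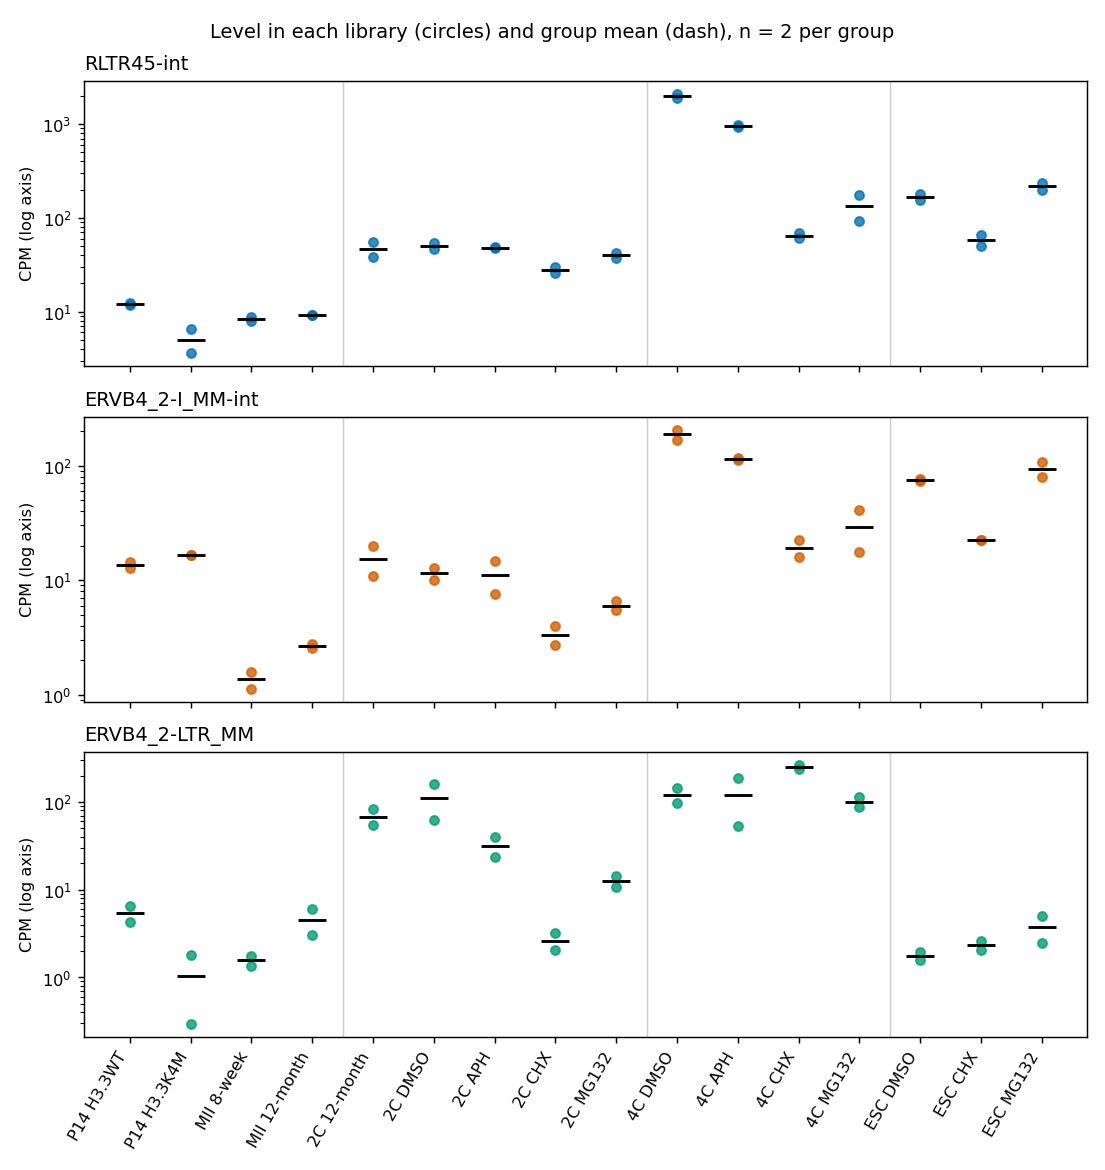
Level of each row in CPM (log axis) in all 16 groups, with 1 circle per library and a dash for the mean of 2. RLTR45-int and ERVB4_2-I_MM-int peak in vehicle 4C embryos, at 1884 and 2095 CPM and at 168 and 206 CPM, whereas ERVB4_2-LTR_MM has its highest values, 236 and 264 CPM, in CHX-treated 4C embryos.

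Ordered by mean over the 16 groups, the upper end was the same for both internal rows. After vehicle 4C embryos came APH-treated 4C embryos, MG132-treated ESCs, vehicle ESCs and MG132-treated 4C embryos. For RLTR45-int, MG132-treated ESCs had 234 and 198 CPM and vehicle ESCs 155 and 177 CPM. The next group, MG132-treated 4C embryos at 177 and 91.8 CPM, overlapped with vehicle ESCs. The 2C groups lay together between 26.0 and 54.95 CPM, and all oocyte libraries were at or under 12.3 CPM, with H3.3K4M oocytes lowest at 3.60 and 6.45 CPM. In this order, 6 of the 15 pairs of neighbouring groups of RLTR45-int had overlapping libraries.

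For ERVB4_2-I_MM-int, MG132-treated ESCs had 107 and 78.8 CPM and vehicle ESCs 73.1 and 75.7 CPM. Below them lay a run of 8 groups, from MG132-treated 4C embryos (40.9 and 17.6 CPM) to APH-treated 2C embryos (7.55 and 14.8 CPM), in which each overlapped with the next. Growing oocytes stood within that run, at 12.8 and 14.3 CPM (H3.3WT) and 16.6 and 16.7 CPM (H3.3K4M). MII oocytes of 8-week females were the lowest group. Of 15 neighbouring pairs, 8 overlapped.

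ERVB4_2-LTR_MM had a different order. Below CHX-treated 4C embryos, the vehicle 4C, APH-treated 4C (53.0 and 189 CPM), vehicle 2C and MG132-treated 4C (113 and 87.9 CPM) groups overlapped each with the next. Untreated 2C embryos of 12-month females had 54.1 and 82.4 CPM. Unlike the internal rows, this LTR was low in all stem cell groups, from 1.58 CPM in a vehicle library to 5.05 CPM in an MG132 library. H3.3K4M oocytes were lowest, with 0.294 and 1.80 CPM, which rest on 8 and 61 counts. In all, 9 of 15 neighbouring pairs overlapped.

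At 4 cells, the internal rows were far lower with CHX and MG132 than with vehicle. RLTR45-int had 60.7 and 68.1 CPM with CHX and 177 and 91.8 CPM with MG132, that is, a vehicle mean 30.9-fold and 14.8-fold above the treated means. ERVB4_2-I_MM-int had 15.9 and 22.5 CPM with CHX and 40.9 and 17.6 CPM with MG132, 9.72-fold and 6.39-fold below vehicle. With CHX the fitted log2 differences were -5.39 ± 0.34 and -3.71 ± 0.42, where 4.59% of 1003 repeat subfamilies were called lower and 12.1% lay lower without overlap. With MG132 they were -4.07 ± 0.32 and -2.86 ± 0.40, where 1.3% were called lower and 13% lay lower without overlap. All of these contrasts share the vehicle libraries, and the members were chosen on them, so the values describe the choice.

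Repeat reads as a whole were not lower with CHX at 4 cells. Repeats took 25.1% and 27.2% of counts in CHX-treated and 17.2% and 20.1% in vehicle 4C libraries, and the median of all repeat subfamilies was 0.24 higher with CHX on the log2 scale. RLTR45-int took 0.398% and 0.485% of ERVK counts with CHX and 1.45% and 0.808% with MG132, against the 13.96% and 16.59% of vehicle. The markers of stage moved too: all 6 2-cell markers were detected in each 4C group, and their sums were at 214 and 355 CPM with CHX and at 120 and 131 CPM with MG132, against 25.4 and 49.4 CPM with vehicle. The summed 4-cell markers were at 1331 and 1421 CPM with CHX and 2740 and 3571 CPM with MG132, against 4350 and 5202 CPM with vehicle. In each of these groups 3 of 4 were detected and Cdx2 had no count. This sum is not particular to the 4-cell stage, as it was 5875 and 6212 CPM in H3.3WT growing oocytes, with 1 of 4 detected. The part of the markers in the result was not tested. In these bulk libraries, fewer embryos in which a row is transcribed and less of its RNA per embryo cannot be told apart.

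ERVB4_2-LTR_MM was not lower with CHX at 4 cells. All values of the CHX group, 236 and 264 CPM, lay above those of vehicle, by 2.06-fold in CPM and by 0.59 ± 0.46 on the log2 scale of the fit, where the median of all features was 0.41. Such separation upwards was found for 58.8% of repeat subfamilies. With MG132 the log2 difference was -0.44 ± 0.46 and the libraries overlapped.

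With APH at 4 cells the differences from vehicle were smaller. RLTR45-int was at 938 and 976 CPM, 2.08-fold below vehicle, and ERVB4_2-I_MM-int at 112 and 117 CPM, 1.63-fold below, with no overlap for either. Such separation to the lower side was found for 34.2% of repeat subfamilies. ERVB4_2-LTR_MM overlapped with vehicle, and its 2 APH libraries, 53.0 and 189 CPM, stood far apart.

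The rise with stage was tested in APH-treated embryos, whose libraries are not those of the vehicle contrast. It was not stated that the choice left these libraries out, and the fit took its spread from all 2C and 4C groups. The p-values are therefore not independent of the choice for certain. From APH-treated 2C to APH-treated 4C embryos, RLTR45-int rose from 47.2 and 49.2 CPM to 938 and 976 CPM, a log2 change of 4.62 ± 0.33 (adjusted p = 7.46e-08, edgeR quasi-likelihood test, adjusted over all genes and repeats). ERVB4_2-I_MM-int rose from 7.55 and 14.8 CPM to 112 and 117 CPM, by 3.66 ± 0.48 (adjusted p = 1.65e-05). ERVB4_2-LTR_MM rose from 23.4 and 40.0 CPM to 53.0 and 189 CPM, by 2.17 ± 0.54 (adjusted p = 0.00434). All 3 rows were thus called higher, as were 8.64% of the 1053 repeat subfamilies tested, whose median change was -0.44. By size of increase they ranked 6, 12 and 58 among those subfamilies. For ERVB4_2-LTR_MM the vehicle 4C mean was only 1.09-fold the vehicle 2C mean. Its 4C means were 121 CPM with both APH and vehicle, while its 2C means were 31.7 CPM with APH and 111 CPM with vehicle. The APH increase of this row thus goes with a lower 2C level and not with a higher 4C level than vehicle. The call of the LTR rested on APH-treated 4C replicate 2: without it the change was 1.08 and the adjusted p 0.130.

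At 2 cells the LTR row had larger differences between drugs and vehicle than the internal rows. ERVB4_2-LTR_MM was at 2.05 and 3.18 CPM with CHX, 10.8 and 14.4 CPM with MG132 and 23.4 and 40.0 CPM with APH, against 61.7 and 161 CPM with vehicle. The fitted log2 differences were -5.01 ± 0.55, -3.28 ± 0.50 and -1.87 ± 0.48, all without overlap. Separation downwards from vehicle was common among repeat subfamilies at this stage: 83.1% with CHX, 74.5% with MG132 and 43% with APH. The median subfamily was lower with CHX by 1.42. ERVB4_2-LTR_MM was among the larger decreases there, at place 959 of 1016 from the most increased.

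RLTR45-int differed less from vehicle than the median repeat at 2 cells. It was at 29.7 and 26.0 CPM with CHX and 42.4 and 37.6 CPM with MG132, differing from vehicle by -0.44 ± 0.29 and -0.45 ± 0.29 on the log2 scale. Repeats as a whole took 8.81% and 12.7% of counts with CHX, against 19.9% and 20.8% with vehicle. ERVB4_2-I_MM-int, at 3.96 and 2.71 CPM with CHX and 5.45 and 6.57 CPM with MG132, was lower by 1.38 ± 0.47 and 1.05 ± 0.46. With APH both internal rows overlapped with vehicle.

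The ratio of 4C to 2C means therefore varied with the agent, and not in the same order for each row. The 4C mean of RLTR45-int was 39.8-fold the 2C mean with vehicle, 19.9-fold with APH, 3.36-fold with MG132 and 2.31-fold with CHX. For ERVB4_2-I_MM-int these ratios were 16.3, 10.3, 4.87 and 5.77. For ERVB4_2-LTR_MM they were 1.09 with vehicle, 3.82 with APH, 7.96 with MG132 and 95.4 with CHX, which reverses the order between vehicle and CHX. Durations of treatment were not given, so a ratio need not be a step within 1 course of treatment. The CHX ratio of ERVB4_2-LTR_MM rests on a 2C mean of 2.62 CPM. In CHX-treated embryos the summed 2-cell markers were at 2.76 and 4.13 CPM at 2 cells and at 214 and 355 CPM at 4 cells. The differences between these ratios were not tested.

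**Figure D2:**
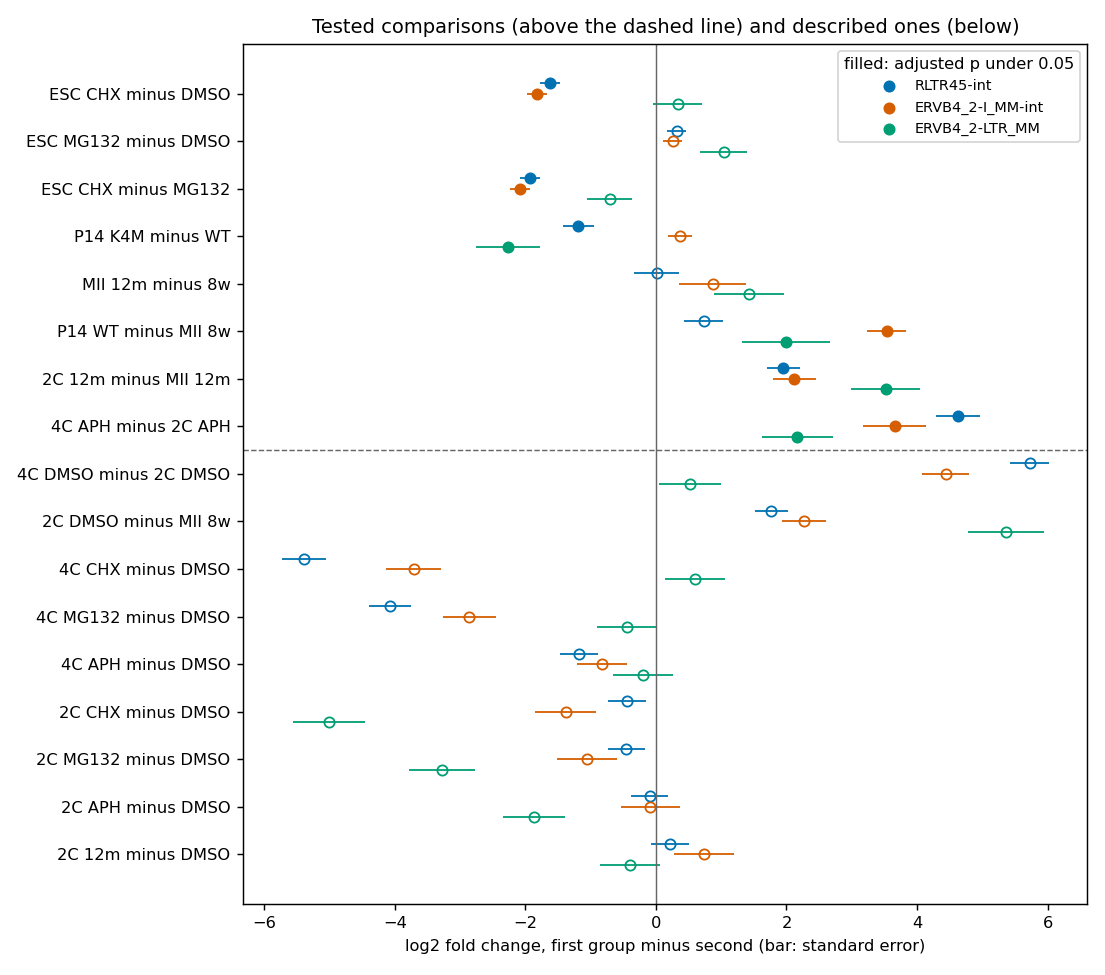
Log2 change of each row (circle) with its standard error (bar) in 17 contrasts, the tested ones above the dashed line and the described ones below it, filled where the adjusted p was under 0.05. Both internal rows lie left of 0 with CHX at 4 cells (-5.39 and -3.71) and in ESCs (-1.62 and -1.82), while ERVB4_2-LTR_MM lies farthest left with CHX at 2 cells (-5.01).

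The drugs were also tested in stem cells. Whether these libraries took part in the choice of the rows was not stated, so the p-values are not independent of it for certain. RLTR45-int fell with CHX from 155 and 177 CPM to 49.8 and 65.2 CPM, by 1.62 ± 0.15 on the log2 scale (adjusted p = 0.000712, edgeR quasi-likelihood test). ERVB4_2-I_MM-int fell from 73.1 and 75.7 CPM to 22.3 and 22.4 CPM, by 1.82 ± 0.15 (adjusted p = 0.000481). Both calls remained when any of the 4 libraries was left out. ERVB4_2-LTR_MM, at 1.94 and 1.58 CPM with vehicle and 2.08 and 2.63 CPM with CHX, did not pass the test (0.33 ± 0.38, adjusted p = 0.554). The 2 internal rows were among the 2.33% of 858 repeat subfamilies called lower, against 3.85% called higher and a median of 0.17, and took places 856 and 858 from the most increased, the last being the largest decrease. Fitted on these 4 libraries alone, 38 subfamilies were called lower and 218 higher, in place of 20 and 33.

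With MG132 the internal rows lay above vehicle in stem cells. RLTR45-int was at 234 and 198 CPM, and the change of 0.32 ± 0.15 did not pass the test (adjusted p = 0.229, edgeR). The values for ERVB4_2-I_MM-int were 107 and 78.8 CPM, a change of 0.26 ± 0.14 (adjusted p = 0.304). ERVB4_2-LTR_MM, at 2.47 and 5.05 CPM, changed by 1.04 ± 0.36 (adjusted p = 0.140). Every library with MG132 lay above both vehicle libraries for each of the 3 rows, as for 52.7% of repeat subfamilies, while 1.28% were called in either direction. The MG132 libraries differed more between themselves (chi-square per degree of freedom 53.2 over genes and repeats) than those of vehicle (3.06) and CHX (3.03). Without MG132 replicate 1 the change of the LTR was 1.51, and without MG132 replicate 2 that of ERVB4_2-I_MM-int was 0.46. Each of these rests on 1 MG132 library and holds no spread of that group.

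The drugs were also compared with each other in stem cells, a contrast added after the values had been seen. RLTR45-int was lower with CHX than with MG132 by 1.93 ± 0.15 (adjusted p = 0.0017, edgeR) and ERVB4_2-I_MM-int by 2.08 ± 0.15 (adjusted p = 0.00154), where 3.26% of subfamilies were called lower. ERVB4_2-LTR_MM did not pass (-0.70 ± 0.34, adjusted p = 0.191). Without CHX replicate 1 neither internal row was called, and without CHX replicate 2 ERVB4_2-I_MM-int was not. Without MG132 replicate 1 the difference of ERVB4_2-LTR_MM was -1.15, which rests on 1 MG132 library. The 3 fibroblast collagens summed to 1032 and 1253 CPM with vehicle, 533 and 537 CPM with CHX and 520 and 576 CPM with MG132. The summed 2-cell markers were at 5.91 and 7.26 CPM with vehicle, 53.0 and 53.2 CPM with CHX and 18.4 and 20.6 CPM with MG132, with 2, 5 and 4 of the 6 detected, and the part of either marker list in the result was not tested.

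In growing oocytes, RLTR45-int and the ERVB4_2 LTR were lower with H3.3K4M than with H3.3WT. RLTR45-int fell from 11.7 and 12.3 CPM to 3.60 and 6.45 CPM, by 1.19 ± 0.24 on the log2 scale (adjusted p = 0.00314, edgeR). ERVB4_2-LTR_MM fell from 6.55 and 4.25 CPM to 0.294 and 1.80 CPM, by 2.26 ± 0.49 (adjusted p = 0.00905). ERVB4_2-I_MM-int was at 12.8 and 14.3 CPM in H3.3WT and 16.6 and 16.7 CPM in H3.3K4M oocytes, a difference of 0.37 ± 0.19 (adjusted p = 0.189) that passed in a fit with crossed replicate numbers, tried after the data were seen (adjusted p = 0.0269). Decreases were common among repeats here, since 27.1% of 791 subfamilies were called lower and the median was -0.45. The size of the LTR's decrease depended on H3.3K4M replicate 2, without which it was -3.98. DESeq2's Wald test gave an adjusted p of 0.107 for it.

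Both ERVB4_2 rows were higher in growing than in MII oocytes. ERVB4_2-I_MM-int was higher in H3.3WT growing oocytes than in 8-week MII oocytes (1.59 and 1.13 CPM) by 3.53 ± 0.30 on the log2 scale (adjusted p = 3.35e-05, edgeR). ERVB4_2-LTR_MM was higher by 1.99 ± 0.67 (adjusted p = 0.0302), and RLTR45-int differed by 0.73 ± 0.30 (adjusted p = 0.0643). Of 873 repeat subfamilies, 11.7% were higher in the growing oocytes and the median was -0.66. The LTR's call was lost without H3.3WT replicate 1, H3.3WT replicate 2 or MII replicate 2. Without MII replicate 2 the difference of RLTR45-int was 0.93, which rests on 1 library of 8-week MII oocytes. Transgene and stage cannot be told apart in this contrast, as the MII oocytes were labelled wild type.

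Differences by maternal age in MII oocytes did not pass the test for any of the 3 rows. RLTR45-int was at 9.14 and 9.18 CPM at 12 months and 7.83 and 8.79 CPM at 8 weeks, a log2 difference of 0.01 ± 0.34 (adjusted p = 0.992, edgeR). ERVB4_2-I_MM-int had 2.79 and 2.57 CPM at 12 months, higher than both 8-week libraries, with a difference of 0.87 ± 0.51 (adjusted p = 0.488). ERVB4_2-LTR_MM had 6.04 and 3.06 CPM, a difference of 1.43 ± 0.53 (adjusted p = 0.281). All libraries of the 12-month group thus lay above those of the 8-week group for each row, as for 21.9% of 830 repeat subfamilies, while 1.08% passed the test in either direction.

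The step from MII oocyte to 2C embryo was tested in the 12-month samples. RLTR45-int rose from 9.14 and 9.18 CPM to 37.95 and 54.95 CPM, by 1.95 ± 0.26 on the log2 scale (adjusted p = 0.000995, edgeR). ERVB4_2-I_MM-int rose from 2.79 and 2.57 CPM to 10.9 and 19.9 CPM, by 2.12 ± 0.33 (adjusted p = 0.00255). ERVB4_2-LTR_MM rose from 6.04 and 3.06 CPM to 54.1 and 82.4 CPM, by 3.52 ± 0.53 (adjusted p = 0.00213). All 3 rows were among the 19.2% of 1006 subfamilies called higher, and the median subfamily was higher by 0.90. Against vehicle 2C embryos of young females, the 12-month embryos overlapped for each of the 3 rows.

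The LTR and the internal row of ERVB4_2 were thus out of step, which the ratio of their counts within a library shows directly. The size of such a ratio depends on the length and number of copies, so only its change between libraries is described. It was 0.867 and 0.472 in vehicle 4C embryos, 4.80 and 15.9 in vehicle 2C embryos and 14.8 and 11.7 in CHX-treated 4C embryos. In vehicle ESCs, whose libraries were made with another kit, it was 0.0266 and 0.0209, lower than in every embryo library. MG132-treated 4C embryos, at 2.77 and 4.998, lay between vehicle and CHX.

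RLTR45 and RLTR45-int drifted apart less widely and in another order. The ratio of the LTR to the internal row was 7.13 and 6.15 in H3.3WT growing oocytes and 2.36 and 2.97 in 8-week MII oocytes. It was 1.65 and 3.51 in vehicle 2C embryos and dropped to 0.175 and 0.173 in vehicle 4C embryos. With CHX at 4 cells it was 2.47 and 1.68, within the range of the 2C groups. In vehicle ESCs, unlike oocytes, it was low again, at 0.204 and 0.184.

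**Figure D3:**
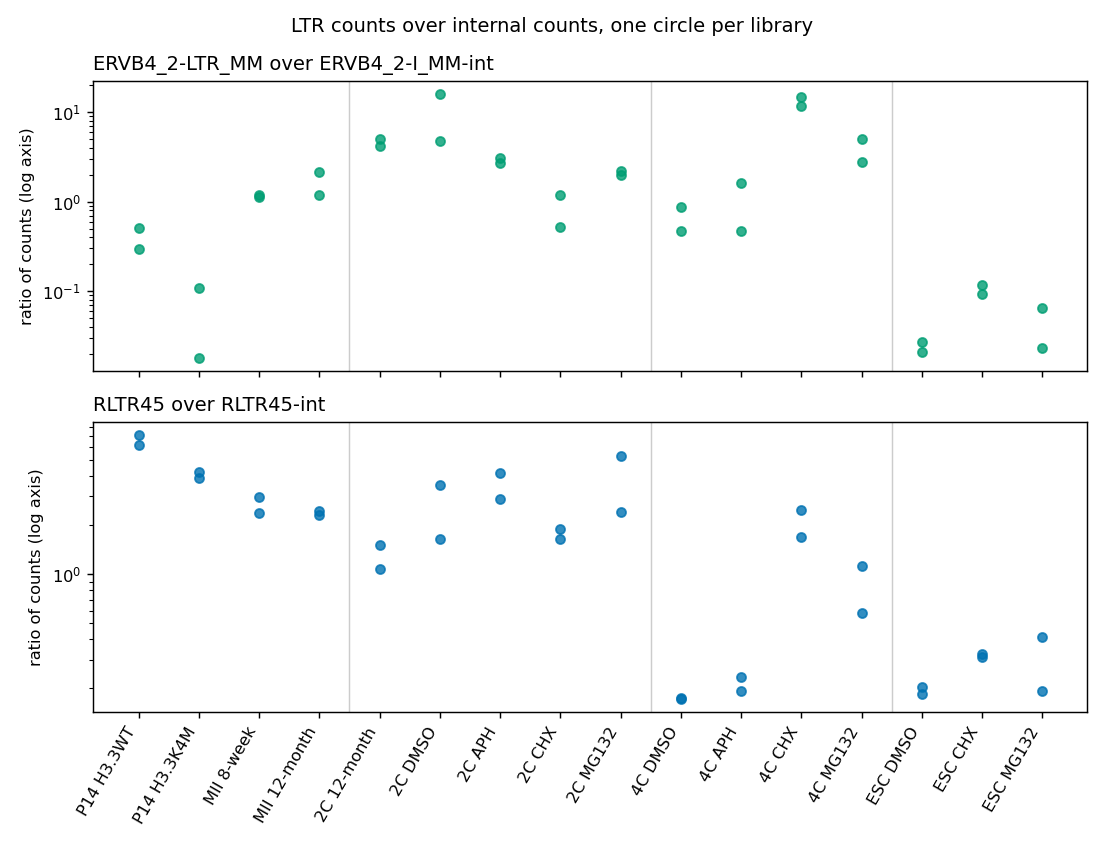
Counts of an LTR row over counts of the internal row of like name (log axis), 1 circle per library, for ERVB4_2 above and RLTR45 below. In vehicle 4C embryos the ratios are 0.867 and 0.472 for ERVB4_2 and 0.175 and 0.173 for RLTR45, and with CHX at 4 cells they are 14.8 and 11.7, and 2.47 and 1.68.

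The internal rows also differed from each other. RLTR45-int over ERVB4_2-I_MM-int gave 11.2 and 10.2 in vehicle 4C embryos and 8.40 and 8.32 with APH. The ratio was 3.80 and 3.02 with CHX and 4.32 and 5.22 with MG132, close to the 3.59 and 5.32 of vehicle 2C embryos. In the 3 stem cell groups it stayed between 2.12 and 2.92. In growing oocytes it was lowest, at 0.908 and 0.858 with H3.3WT and 0.217 and 0.386 with H3.3K4M.

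Relatives by name were looked at as a list: the 20 other rows that start with RLTR45 or ERVB. From vehicle 2C to vehicle 4C embryos, 4 of 19 tested were called higher and 4 lower, with a median log2 change of -0.21. Repeat subfamilies as a whole were called higher in 8.35% and lower in 23.8% of cases. RLTR45, the LTR, rose from 76.0 and 188 CPM to 329 and 362 CPM (1.78 ± 0.42, adjusted p = 0.00549, edgeR). The internal row ERVB2_1A-I_MM-int rose from 4.66 and 5.49 CPM to 18.3 and 17.8 CPM (2.24 ± 0.52, adjusted p = 0.00513). The LTR row of another ERVB4 subfamily, ERVB4_3-LTR_MM, instead fell from a mean of 18.6 to 1.64 CPM (-3.08 ± 0.40, adjusted p = 0.000162). Rows that share the name thus went both ways.

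With CHX at 4 cells, 2 of 19 relatives were lower and 1 higher, against 4.59% and 3.09% of all repeat subfamilies. RLTR45 fell to 150 and 115 CPM (-1.85 ± 0.25, adjusted p = 0.00194, edgeR) and, with MG132, to 102 and 104 CPM (-1.90 ± 0.25, adjusted p = 0.0059). ERVB2_1A-I_MM-int fell to 4.06 and 4.77 CPM with CHX (-2.48 ± 0.48, adjusted p = 0.00837), a call lost without CHX replicate 1 (adjusted p = 0.0563). In stem cells with CHX, RLTR45 went from 31.6 and 32.7 CPM to 16.2 and 20.4 CPM (-0.90 ± 0.26, adjusted p = 0.041), a call lost without any 1 of the 4 libraries, with adjusted p between 0.143 and 0.252. In H3.3K4M oocytes RLTR45 fell from 83.1 and 75.4 CPM to 15.2 and 25.1 CPM (-1.92 ± 0.19, adjusted p = 2.25e-05), 1 of 4 relatives called lower of 17 tested, where 27.1% of all repeat subfamilies were.

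**Figure D4:**
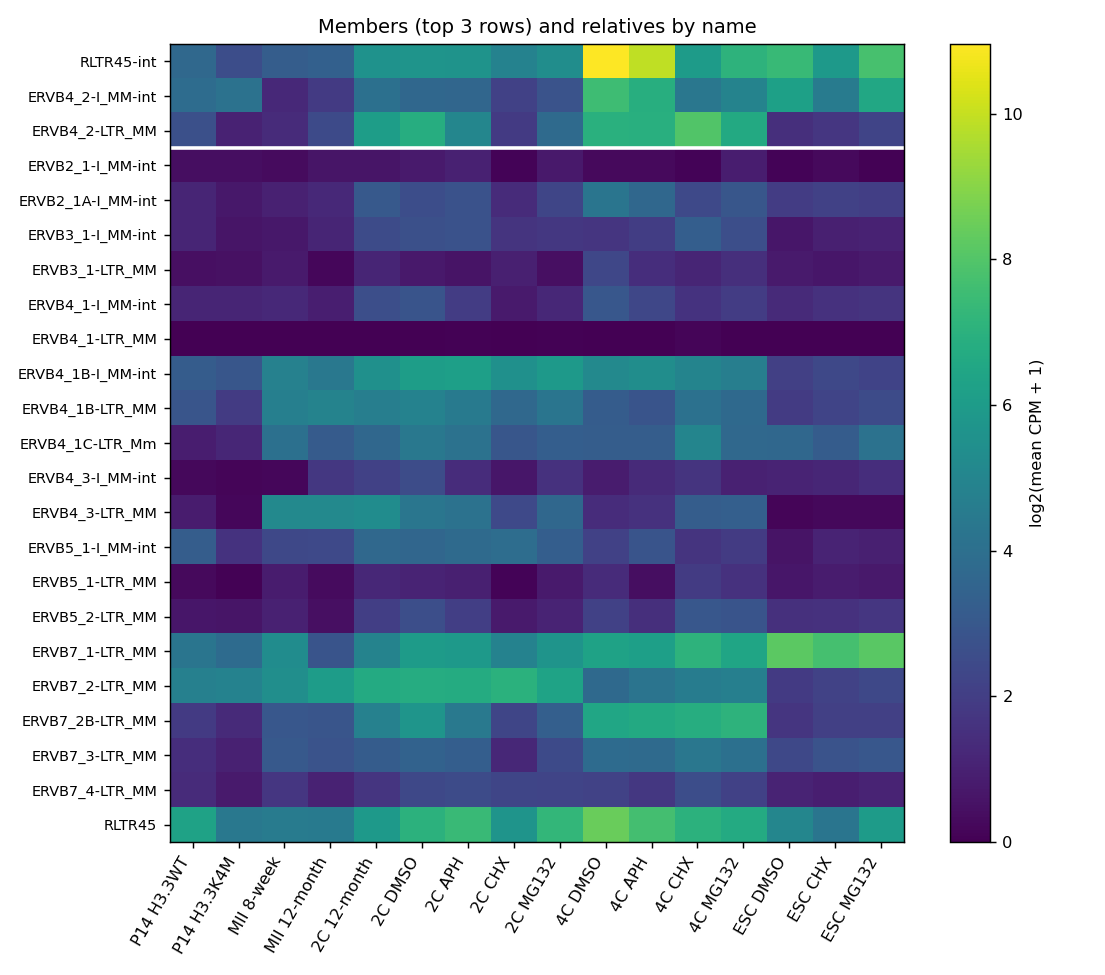
Mean level of the 3 rows (above the white line) and of the 20 relatives by name, as log2 of mean CPM plus 1, in all 16 groups. In 4 of the 20 relatives, among them RLTR45 (345.6 CPM) and ERVB2_1A-I_MM-int (18.1 CPM), the highest mean is that of vehicle 4C embryos.

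Among the 43 other internal rows of the ERVK family, 9 were called higher and 9 lower of 42 tested from vehicle 2C to vehicle 4C embryos, with a median of -0.46, against 8.35% and 23.8% of all repeat subfamilies. With CHX at 4 cells 4 were higher and 4 lower, with a median of 0.13, against 3.09% and 4.59% of all. In stem cells with CHX, 4 were higher and 6 lower of 41, with a median of 0.10, against 3.85% and 2.33% of all. At 2 cells with CHX, by contrast, 22 of 42 were lower and 1 higher (median -1.37), against 42.1% and 1.08% of all repeat subfamilies, where RLTR45-int differed by -0.44. In H3.3K4M oocytes 11 of 40 were lower and 1 higher, with a median of -0.19, against 27.1% and 2.65% of all repeat subfamilies.

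Genes known to act in silencing of endogenous retroviruses were taken as a list of 32. From vehicle 2C to vehicle 4C embryos 8 were higher and 6 lower, where 19.5% and 29.3% of all genes tested were. The corepressor gene Trim28 rose from a mean of 20.5 to 129 CPM (3.08 ± 0.49, adjusted p = 0.000546, edgeR). The gene of the DNA methylation factor Uhrf1 fell from 191 to 3.90 CPM (-5.21 ± 0.49, adjusted p = 2.05e-05), and that of the histone methyltransferase Suv39h2 from 80.5 to 6.58 CPM (-3.20 ± 0.38, adjusted p = 8.49e-05). The increase of the histone methyltransferase gene Ehmt2 (5.33 ± 1.53, adjusted p = 0.0161) started from a mean of 0.455 CPM at 2 cells. The increases of Sumo2 (7.27 ± 0.37) and Cbx3 (5.17 ± 0.33) are uncertain because both have near-identical retrocopies.

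With CHX at 4 cells, 8 of the 32 were lower and 3 higher, where 10.2% and 8.64% of all genes tested were. Uhrf1 stood at 29.4 CPM with CHX (2.46 ± 0.40, adjusted p = 0.00399, edgeR) and Trim28 at 72.2 CPM (-1.29 ± 0.25, adjusted p = 0.00848, lost without CHX replicate 1). Pphln1, which encodes a subunit of the silencing complex HUSH, fell from 219 to 51.2 CPM (-2.55 ± 0.26, adjusted p = 0.000639). The gene of another HUSH subunit, Mphosph8, was instead higher by 1.54 on the log2 scale (adjusted p = 0.0185, edgeR). Without vehicle replicate 2 the difference of Mphosph8 was 1.17. In stem cells with CHX, 9 were lower and 1 higher, where 13.1% and 13.4% of all genes were. The higher one was Dnmt3l, a cofactor of DNA methylation (1.70 ± 0.17, adjusted p = 0.000843). The largest decrease was that of the histone chaperone gene Daxx (-0.76 ± 0.11, adjusted p = 0.00284), lost without CHX replicate 2 (adjusted p = 0.062) or vehicle replicate 1 (0.0527). The calls of the other 8 lower genes were each lost without any 1 of the 4 libraries (adjusted p between 0.0854 and 0.231). Whether any of these genes bears on the retroviral rows was not tested.

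The rows and genes most like each member were ranked by Pearson's r of log2(CPM + 1) group means over the 13 oocyte and embryo groups, among 604 subfamilies and 11858 genes with at least 10 CPM in 1 group. These correlations are a description, since groups share libraries' depth and stage. Among themselves the members gave r = 0.854 (the internal rows), 0.766 (RLTR45-int and ERVB4_2-LTR_MM) and 0.680 (both ERVB4_2 rows). The LTR of ERVB4_2 was thus least like the internal row that shares its name.

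RLTR45-int was most like RLTR13B1, an LTR of the ERVK family (r = 0.959), which had means of 14.6 CPM in vehicle 2C, 102 CPM in vehicle 4C and 14.8 CPM in CHX-treated 4C embryos. ERVB2_1A-I_MM-int (0.933), LTRIS4 (0.926), L1PB4 (0.921) and ORR1A4-int (0.916) followed. The nearest gene was 4430402I18Rik (r = 0.978), protein-coding, on the minus strand at chr19:28893042-28967800 (mm10). Gm46430, Gm12790, the homeobox gene Mixl1 and the zinc finger gene Zfp644 came next, the last with means of 47.1 CPM in vehicle 2C and 202 CPM in vehicle 4C embryos.

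ERVB4_2-I_MM-int was most like RLTR13B2 (r = 0.951), with means of 12.52 CPM in vehicle 2C, 87.7 CPM in vehicle 4C and 13.2 CPM in CHX-treated 4C embryos. LTRIS4 was second, with r = 0.906. Among its nearest genes were Snx1 (a sorting nexin, r = 0.961), Elp5 (an Elongator subunit), the ribosomal protein gene Rpl3 and Txnl4a. Snx1 had means of 2.54 CPM in vehicle 2C, 35.1 CPM in vehicle 4C and 6.06 CPM in CHX-treated 4C embryos.

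ERVB4_2-LTR_MM was most like RLTR31B2 (r = 0.976), Charlie12 (0.971), RLTR9A (0.966), RLTR14_RN (0.963) and MERVL-int (0.963). MERVL-int, the retrovirus known for its transcription at the 2-cell stage, had means of 19358 CPM in vehicle 2C, 26.3 CPM in CHX-treated 2C, 5956 CPM in vehicle 4C and 12543 CPM in CHX-treated 4C embryos. The nearest genes were Gm5788 (r = 0.959), Dcc, 1110038B12Rik, Snhg5 and Gm47738. Gm5788 had means of 44.2 CPM in vehicle and 218 CPM in CHX-treated 4C embryos.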

How the data were processed

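The authors deposited raw read counts of genes and repeat subfamilies, 1 table per sample. Per the submitters' processing notes, reads were handled with cutadapt 1.16 and STAR on mm10. Counter, annotation, strand setting and the handling of multi-mapping reads were not given in the sources used here, so reads of repeats inside gene transcripts may be in a repeat row. Groups came from the labels. Features passed filterByExpr (minimum count 10, minimum total 15), and library sizes came from TMM on all genes and repeats. The program edgeR 4.0.16 (R 4.3.3) gave quasi-likelihood tests with Benjamini-Hochberg adjustment over all genes and repeats (threshold 0.05). Simulated counts were tried beforehand for the stem cell fit and the fit of all embryos only. They had the same spread for every feature, so they do not tell the rate of false calls in the real libraries. There were 8 tested and 9 described comparisons. CPM are counts scaled to a library total of 1000000. All 3 members passed the filter in each fit. As alternatives, size factors and the Wald test of DESeq2 1.42.0, gene-only library sizes, no filter, adjustment over repeats only, only the libraries compared, a replicate block and leaving out each library were tried. Among 2C embryos given DMSO or a drug, libraries with equal numbers deviated together (r from 0.181 to 0.436 over 6 pairs of groups). No label states a pairing, and the main fits did not model it. Only the replicate block among the alternatives did. Named features were the members, rows with names starting in RLTR45 or ERVB, the 5 most similar rows and genes per member, MERVL-int, IAPEz-int and MT2C_Mm, and up to 4 called silencing genes per direction; the text gives a selection of them, and 1 is not reported here. Members and lists were chosen with earlier results of these data known. Of 55335 gene identifiers, 55154 matched the GENCODE annotation.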

Additional observations from a re-analysis of the deposited data

Results flagged for a closer look

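Drug and vehicle libraries went opposite ways in different systems, without overlap, for several rows. With MG132, RLTR45-int was lower at 2 cells (-0.45) and 4 cells (-4.07) and higher in stem cells (0.32), all as log2 differences from vehicle. With the same agent ERVB4_2-I_MM-int was lower at 2 cells (-1.05) and 4 cells (-2.86) and higher in stem cells (0.26). ERVB4_2-LTR_MM with MG132 was lower at 2 cells (-3.28) and higher in stem cells (1.04). With CHX, ERVB4_2-LTR_MM was lower at 2 cells (-5.01) but higher at 4 cells (0.59) and in stem cells (0.33). Such separation was common among repeat subfamilies at 2 cells, downwards for 74.5% with MG132 and 83.1% with CHX. At 4 cells it was found downwards for 13% with MG132 and upwards for 58.8% with CHX. In stem cells it was found upwards for 52.7% with MG132. With CHX in stem cells the median subfamily was 0.17 higher, and the share separated upwards is not given. Nothing is therefore read from the separation of ERVB4_2-LTR_MM there, between 1.94 and 1.58 CPM with vehicle and 2.08 and 2.63 CPM with CHX. The differences between the systems were not tested, and the values in stem cells did not pass the test of the drug there.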

How the results depend on the processing

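Of 567 alternative values of the members, 537 kept their direction and side of the threshold or moved by less than the spread between replicates, 15 moved by more, 8 lost a call, 5 gained one and 2 changed sign. The cause of these changes was not tested. With DESeq2 size factors and the DESeq2 Wald test the rise of RLTR45-int from vehicle 2C to 4C was 5.94. With gene-only library sizes, its rise from MII oocyte to 2C was 2.07 and its difference by age in MII oocytes was -0.0024. The DESeq2 Wald test gave -2.33 for ERVB4_2-LTR_MM in H3.3K4M oocytes. TMM-scaled and gene-only CPM were 2228 and 2449 for RLTR45-int and 197.5 and 338.5 for ERVB4_2-LTR_MM in their highest groups, and gene-only CPM was 230.3 for ERVB4_2-I_MM-int.

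Leaving out each library gave these ranges. RLTR45-int ranged from 5.50 to 5.79 (vehicle 4C against 2C), 1.61 to 2.06 (vehicle 2C against MII), -1.29 to -1.08 (APH at 4 cells), -5.59 to -5.21 (CHX at 4 cells), -0.57 to -0.24 (MG132 at 2 cells), -0.25 to 0.080 (APH at 2 cells), 0.61 to 0.93 (growing against MII oocytes), -0.18 to 0.21 (age in MII) and -2.10 to -1.73 (CHX against MG132 in ESCs). ERVB4_2-I_MM-int ranged from -2.26 to -1.87 (CHX against MG132) and 0.077 to 0.46 (MG132) in ESCs. ERVB4_2-LTR_MM ranged from -1.15 to -0.063 (CHX against MG132) and 0.42 to 1.51 (MG132) in ESCs, 1.78 to 2.24 (growing against MII) and 1.08 to 2.75 (APH, 4C against 2C).

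A replicate block changed no call of a member: with it RLTR45-int differed by -1.62 (adjusted p = 0.00265) and ERVB4_2-I_MM-int by -1.82 (adjusted p = 0.00179) with CHX in ESCs. Same-numbered libraries correlated at 0.0251 to 0.203 in ESCs and -0.0208 to 0.139 at 4 cells, so these numbers are not taken as pairs, although each ESC library correlated best with its own number; the block gave 42 in place of 53 repeat subfamilies called with CHX in ESCs. In P14 and MII oocytes the correlations were -0.484 and -0.194, and with the numbers crossed, an alternative chosen after seeing the data, 341 in place of 235 and 8 in place of 9 subfamilies were called, and ERVB4_2-I_MM-int in H3.3K4M oocytes was called at 0.37.

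Numbers of subfamilies called moved by over 1.5 times in many settings. In ESCs with CHX the 53 became 7 to 11 without 1 library, 13 adjusted over repeats only, 35 by DESeq2 and 256 fitted alone. With MG132 in ESCs 11 became 0 fitted alone or adjusted over repeats only, 1 with the replicate block, 25 by DESeq2 and 40 with no filter. For CHX against MG132 37 became 13 fitted alone or adjusted over repeats only. Both numbers went far up without an MG132 library and down without a library of the other group compared. From 12-month oocyte to embryo 203 became 77 to 113 without 1 library and 345 by DESeq2. At 4 cells 77 with CHX became 33 to 50 and 152, and 27 with MG132 became 8 to 14 and 74; at 2 cells 277 with MG132 became 82 to 161 and 449. In P14 oocytes 235 became 125 to 221, and in MII oocytes 9 became 63 by DESeq2. Other scaling moved the median of all features by 0.21 and -0.15 (vehicle 4C against 2C), 0.29 (2C against MII), 0.19 (12-month samples), -0.14 and -0.11 (growing against MII oocytes) and -0.13 (MG132 at 2 cells). Of the 5 rows or genes named as most similar to a member, 0 to 2 were named again over all 16 groups.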

Other observations

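MERVL-int rose with CHX in stem cells, from a mean of 289 to 1878 CPM (log2 change 2.62 ± 0.15, adjusted p = 0.000331, edgeR quasi-likelihood test), where RLTR45-int and ERVB4_2-I_MM-int fell. IAPEz-int, the internal row of the intracisternal A particle, rose from vehicle 2C to vehicle 4C embryos from a mean of 266 to 892 CPM (2.16 ± 0.36, adjusted p = 0.000683), and its CHX-treated 4C libraries, at a mean of 1495 CPM, lay above vehicle (0.31 ± 0.39, adjusted p = 0.61). MT2C_Mm rose from 948 to 22961 CPM between the vehicle groups (5.01 ± 0.26, adjusted p = 1.26e-06), and its CHX-treated and vehicle 4C libraries overlapped (-0.30 ± 0.28, adjusted p = 0.487). In H3.3K4M oocytes MERVL-int was lower, at a mean of 11.03 against 24.3 CPM (-1.06 ± 0.18, adjusted p = 0.00129), and IAPEz-int, with means of 2369 CPM against 2622 CPM in H3.3WT, overlapped.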
